A study of Mus musculus with 2 samples.

Results

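The genes described here encode enzymes of heme synthesis and mitoferrin 1, which carries iron into mitochondria. They were measured in the midbrain of B6NCrl mouse embryos at 12.5 days of gestation, as polyadenylated RNA in 2 libraries of 1 group. Both libraries came from healthy embryos, males and females pooled together, with replicate 1 made from 120 embryos and replicate 2 from 88. There is no treatment, mutant or control, so a difference between the libraries is one between 2 pools of the same kind. The 9 genes were found by symbol among 55536 genes of the M21 annotation, and all 9 were present: Alas1, Alas2, Alad, Uros, Urod, Cpox, Ppox, Fech and Slc25a37.

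Heme synthesis begins in mitochondria, where aminolevulinate synthase condenses glycine with succinyl-CoA in the step that limits the rate. The middle steps take place in the cytosol, and the last ones, which end with the insertion of iron, again in mitochondria. Every cell that respires needs heme for its cytochromes, while red blood cell precursors make far more of it for hemoglobin. Vertebrates have a first enzyme used in all tissues, Alas1, and another used in the erythroid line, Alas2.

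Gene counts summed to 29056772 in replicate 1 and 37122519 in replicate 2. All 5 midbrain markers were detected at 1 TPM (an abundance per transcript length) or more in both libraries. Otx2, a midbrain and forebrain factor, was highest at 145 TPM in replicate 1 and 141 TPM in replicate 2. En2 was lowest at 1.14 TPM in replicate 1 and 1.64 TPM in replicate 2. Of the 5, Otx2 was the 1 marker higher in replicate 1 beyond counting error, and the other 4 were lower. The libraries stood apart in some markers. Pax6 was at 57.2 TPM in replicate 1 and 16.9 TPM in replicate 2, and the 5 mesenchyme markers summed to 809 TPM in replicate 1 and 1157 TPM in replicate 2. The 4 hepatocyte markers summed to 54.5 TPM in replicate 1 and 14.6 TPM in replicate 2, with Alb at 0 in both. Most of each sum was Ttr, at 37.8 TPM in replicate 1 and 13.5 TPM in replicate 2. Afp was at 11.5 TPM in replicate 1 and 0.09 TPM in replicate 2.

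Sequences at the starts of 3 of the genes are shown for the letters of known regulators that they hold. The red cell factor GATA1 binds GATA letters, the respiratory factor NRF1 binds GCGCANGCGC, and iron regulatory proteins bind a hairpin in the 5′ UTR of some messages when iron is low. The first 3 sequences are from RefSeq (GRCm38.p6), 5′ to 3′ along the gene: the Alas2 promoter at chrX:150547167-150547374 (plus strand), the Cpox promoter at chr16:58669958-58670207 (plus strand), and 30 bases at the start of Alas1 at chr9:106247906-106247935 (minus strand). Capitals mark the GATA letters in Alas2 and Cpox and the NRF1 letters in Alas1.
Alas2: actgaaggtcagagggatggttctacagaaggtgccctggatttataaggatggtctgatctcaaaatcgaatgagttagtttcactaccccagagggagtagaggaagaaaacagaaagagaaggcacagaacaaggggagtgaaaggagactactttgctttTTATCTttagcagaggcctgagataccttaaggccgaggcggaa
Cpox: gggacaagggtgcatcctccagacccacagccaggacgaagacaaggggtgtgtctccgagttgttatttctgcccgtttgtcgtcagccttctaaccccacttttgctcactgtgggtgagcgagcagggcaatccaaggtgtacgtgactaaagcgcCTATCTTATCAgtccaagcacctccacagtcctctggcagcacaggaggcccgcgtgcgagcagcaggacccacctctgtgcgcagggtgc
Alas1: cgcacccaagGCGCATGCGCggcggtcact
The fourth holds the hairpin of Alas2 with flanking bases, from the GENCODE M21 transcript Alas2-201, with the letters of the loop in capitals.
Alas2 iron-responsive element: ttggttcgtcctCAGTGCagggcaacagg

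The GATA letters searched on either strand were AGATAA and likewise TGATAA, together with AGATAG and also the form TGATAG. They lay at -86 from the RefSeq start in Alas2. In Cpox they lay at -91 and -86, sharing 1 base, and again at 4. Such letters are common: 33.0% of 27025 genes with a promoter window hold them in a window. The NRF1 letters, on either strand, were at 0 and 29 from the first RefSeq start of Alas1 and at -47 from the first of Uros, and 5.19% of genes hold them. Of the other members with a window, Alad, Urod and Ppox held neither, and a second start of Uros held GATA letters at -205 and -68. Windows for 7 of the 9 genes were used, with none for Fech or Slc25a37. Neither CCACACC nor its complement was in any of these windows, against 8.72% of genes, and TATAAA or its complement was in that of Alas2 alone, at -209, against 15.7% of genes.

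The hairpin search asked for C, then 5 bases that pair (G with T allowed) with the 5 bases after the loop CAGTGN. Alas2 was the 1 member that held it, in both of its coding transcripts. The stretch shown above is the match in the 5′ UTR of Alas2-201 with flanking bases on each side. Of that stretch, 28 bases are at chrX:150547458-150547485 at the end of exon 1. The last 1 is at chrX:150552149, the first base of exon 2. The match itself lies within exon 1, and the flanking bases were not tested for pairing. In all, 31 of 20597 genes with a 5′ UTR held such an element, which is 0.151%. The iron storage genes Fth1 and Ftl1 and the iron exporter Slc40a1, known carriers of the element, were among them. The letters CAGTG alone were in 34.1% of these genes.

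All 9 genes were detected at 1 TPM or more in both libraries, against 59.4% of 22028 protein-coding genes. Their mean levels ran from 10.8 to 64.4 TPM, a 5.94-fold span, with a median of 41.2 TPM beside 22.2 TPM over the 13083 detected protein-coding genes. Between 616 and 2298 counts per library stood behind each gene.

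Alas1 (ENSMUSG00000032786.16, chr9:106233455-106248654, minus strand, mm10), the first enzyme in all tissues, was at 66.9 TPM in replicate 1 and 61.9 TPM in replicate 2. Its mean of 64.4 ± 3.56 TPM (SD, n = 2) was above that of 79.1% of detected protein-coding genes. Alas2 (ENSMUSG00000025270.13, chrX:150547375-150570638, plus strand), its erythroid counterpart, was at 26.1 TPM in replicate 1 and 34.8 TPM in replicate 2, with a mean of 30.4 ± 6.12 TPM. The erythroid enzyme was thus present at a level above that of 59.1% of detected genes, and it had the widest spread between the pools of the 9.

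The cytosolic enzymes come next. Alad (ENSMUSG00000028393.10, chr4:62509169-62519918, minus strand), which joins aminolevulinate molecules into porphobilinogen, was at 52.2 TPM in replicate 1 and 52.8 TPM in replicate 2. Uros (ENSMUSG00000030979.13, chr7:133686243-133710072, minus strand), which closes the porphyrin ring, was at 29.1 TPM in replicate 1 and 31.3 TPM in replicate 2. Urod (ENSMUSG00000028684.14, chr4:116989965-116994413, minus strand), which removes carboxyl groups from that ring, was at 60.1 TPM in replicate 1 and 66.9 TPM in replicate 2. Of these cytosolic enzymes, Urod was the highest and Uros the lowest in both libraries.

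Back in mitochondria, Cpox (ENSMUSG00000022742.6, chr16:58670292-58717636, plus strand) converts coproporphyrinogen to protoporphyrinogen and was at 12.7 TPM in replicate 1 and 13.5 TPM in replicate 2. Ppox (ENSMUSG00000062729.11, chr1:171275990-171281186, minus strand) oxidises that product to protoporphyrin and was at 46.9 TPM in replicate 1 and 48.2 TPM in replicate 2. Fech (ENSMUSG00000024588.9, chr18:64452914-64490251, minus strand), which inserts iron, was at 39.5 TPM in replicate 1 and 43.0 TPM in replicate 2. By gene TPM, Cpox was thus the lowest of the enzymes, and its neighbour Ppox was more than 3-fold higher in each library. The gap was smaller between their main coding transcripts. Ppox-201 was at 22.35 TPM in replicate 1 and 20.68 TPM in replicate 2, and Cpox-201 at 9.74 TPM and 10.48 TPM. Slc25a37 (ENSMUSG00000034248.7, chr14:69241848-69285112, minus strand), or mitoferrin 1, was the lowest of the 9 at 10.5 TPM in replicate 1 and 11.2 TPM in replicate 2. Its relative Slc25a28, or mitoferrin 2, which supplies iron outside the erythroid line, was at 12.8 TPM in replicate 1 and 12.4 TPM in replicate 2, so the 2 carriers were at like levels and their ranges did not overlap.

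In order of mean level the genes ran Alas1, Urod, Alad, Ppox, Fech, Alas2, Uros, Cpox and Slc25a37. The library ranges of neighbours overlapped for Alas1 with Urod and for Alas2 with Uros, so neither of those orders was beyond the spread. The other 6 neighbouring ranges were apart, with only 2 libraries behind each.

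**Figure D1:**
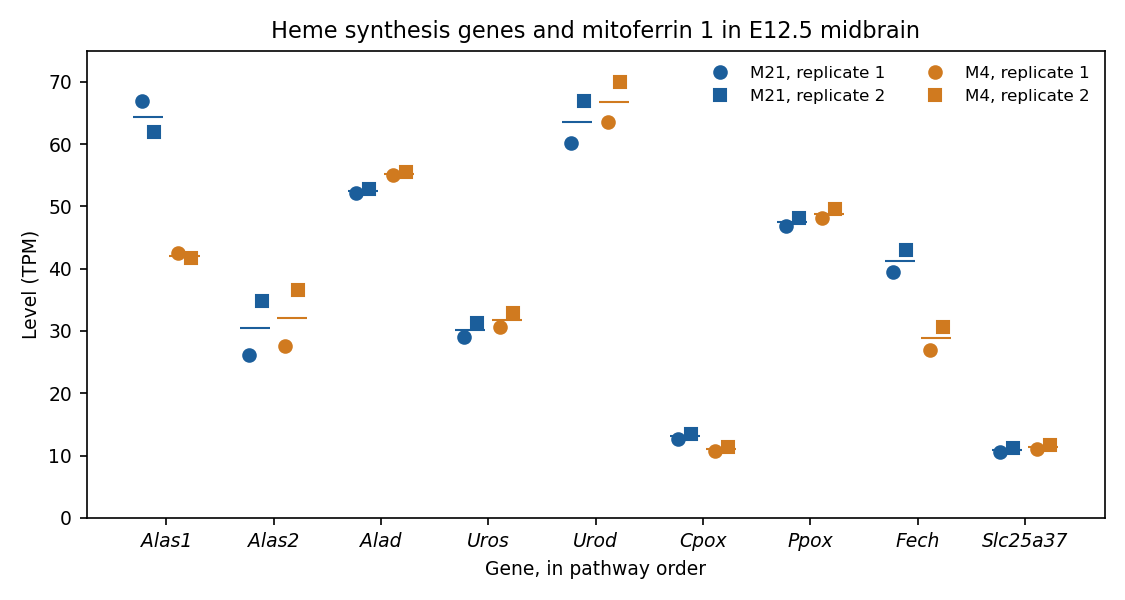
Level of each gene in TPM (vertical axis), in pathway order, under annotation M21 (blue, left) and M4 (orange, right). Circles are replicate 1, squares replicate 2 and lines the mean of 2 libraries; Alas1 and Fech are higher under M21, while most genes are slightly lower.

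The order depends in part on the length by which reads are divided. The same reads were also quantified by the authors against the older annotation M4. Alas1 was then at 42.5 TPM in replicate 1 and 41.7 TPM in replicate 2, a log2 ratio of M21 over M4 of 0.61 ± 0.06 (SD, n = 2). Fech was at 27.0 TPM in replicate 1 and 30.7 TPM in replicate 2 under M4, a log2 ratio of 0.52 ± 0.04. These 2 genes were the members that moved by 1.2-fold or more, against 13.1% of 14560 genes. Cpox moved by 0.25 and the other 6 genes by -0.08 to -0.04, beside a median of -0.07 over all genes.

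The reads assigned to Alas1 hardly differed between the annotations. Alas1 had 1479 counts under M21 and 1442 under M4 in replicate 1, and 1854 under M21 and 1796 under M4 in replicate 2. Fech had 1420 counts under M21 and 1338 under M4 in replicate 1, and 2046 under M21 and 1928 under M4 in replicate 2. As CPM, counts scaled by the gene total, M21 over M4 was -0.00066 on the log2 scale for Alas1 and 0.044 for Fech. The numbers of transcripts did differ: Alas1 has 13 transcripts in M21 and 8 in M4, Fech 15 and 1, and Cpox 6 and 1, whereas 5 of the other 6 genes have equal numbers and Uros has 10 and 9.

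Dividing each gene's CPM (counts scaled by the gene total) by its longest coding length in kb, a measure chosen after the data were seen, gave another order. Ppox was then highest at 43.4 ± 0.22, followed by Fech at 41.1 ± 3.49 and Urod at 40.7 ± 3.32 (SD, n = 2), with overlapping library ranges for Ppox and Fech and for Fech and Urod. Alas1 came seventh of 9 at 26.2 ± 0.35, with Alas2 at 20.5 ± 3.46 and Cpox at 16.2 ± 0.40 below it. Slc25a37, lowest by TPM, was at 30.9 ± 0.78 and above Alas1. This measure counts reads from untranslated and intronic parts but leaves their length out, so genes with long UTRs such as Slc25a37, or with retained introns such as Ppox, gain from it.

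Alas2 against Alas1 is the comparison of the erythroid with the general first enzyme. By deposited TPM the log2 ratio of Alas2 over Alas1 was -1.35 in replicate 1 and -0.83 in replicate 2, with a mean of -1.09 ± 0.37 (SD, n = 2). Alas1 was therefore 2.56-fold higher in replicate 1 and 1.78-fold higher in replicate 2. Under M4 the log2 ratio was -0.62 in replicate 1 and -0.19 in replicate 2, and by counts per coding base it was -0.55 in replicate 1 and -0.17 in replicate 2. Alas1 was the higher in both libraries by all 3 measures, but the size of the difference under M21 was more than 1.5 times that under either of the others. All 3 measures include reads of transcripts not annotated as protein-coding. Under M21, protein-coding transcripts held 45.4% of Alas1 TPM in replicate 1 and 46.1% in replicate 2. For Alas2 they held 99.2% in replicate 1 and 94.6% in replicate 2. None of the 3 measures therefore gives the order of the coding transcripts alone. Coding lengths are 1761 bases for Alas2 and 1926 for Alas1.

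**Figure D2:**
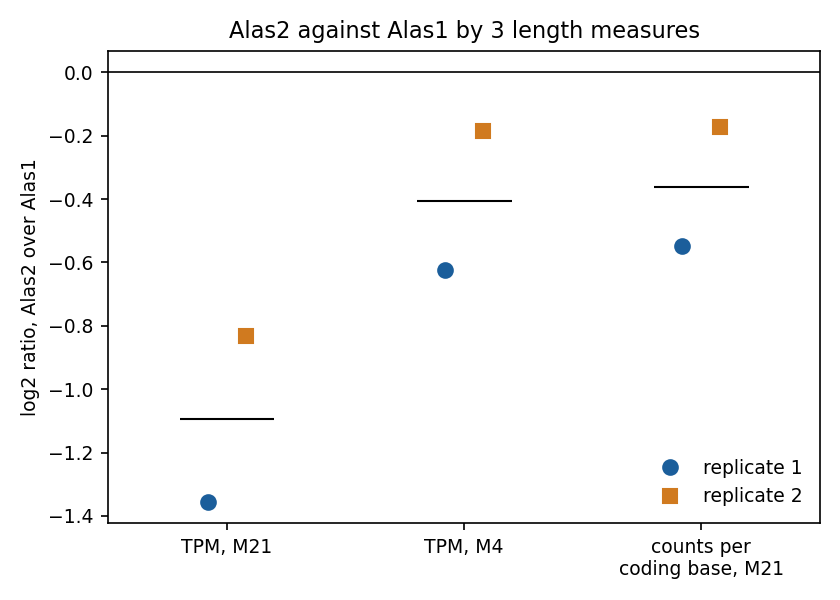
The log2 ratio of Alas2 over Alas1 (vertical axis) by TPM under M21, TPM under M4 and M21 counts per base of longest coding length. Circles are replicate 1, squares replicate 2 and short lines the mean of 2 libraries; every point is below 0, and the M21 points are the lowest.

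Between the pools the 9 genes differed little, and Alas2 differed most. None of the 9 genes differed 2-fold, against 4.23% of 19885 genes tested. Many of those have few counts, and of the 4248 genes with counts in the range of these 9 the share was 0.0942%, so the count of 0 does not set the pathway apart. The median log2 ratio of replicate 1 over replicate 2 was -0.04 over the 9 genes and -0.01 over all genes tested. With 1 library per pool there is no test across pools, and the 95% intervals cover counting error only.

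Alas2 had 926 counts in replicate 1 and 1502 in replicate 2, a log2 ratio of -0.33 (interval -0.45 to -0.22). Fech, the last enzyme, had a log2 ratio of -0.16 (-0.26 to -0.07). Urod, with 1228 counts in replicate 1 and 1761 in replicate 2, also had -0.16 (-0.26 to -0.05). These 3 genes were lower in replicate 1 beyond counting error, against 16.7% of genes tested, and 0 were higher, against 15.5%. Among 9 genes these counts are too small to set the pathway apart from other genes. The other 6 ran from -0.13 for Uros to 0.04 for Alas1, each with an interval that included equality. Among the 4248 genes in that count range, 17.5% were lower in replicate 1 beyond counting error and 18.9% higher, and 95.7% had a smaller absolute ratio than Alas2. That share was 74.2% over all genes tested. Alas2 was singled out as the most different of the 9, so these shares are not those of a gene named beforehand.

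Because all genes of a library share its scaling, a ratio of Alas2 to another gene needs none. This comparison was added after the data were seen. Relative to each of the other 8 genes, Alas2 was lower in replicate 1, from -0.17 against Fech (interval -0.33 to -0.02) to -0.37 against Alas1 (-0.53 to -0.22). Since Alas2 was taken as the lowest of the 9, the direction was fixed by that choice, and these values describe only the size, in comparisons that share the counts of Alas2.

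The direction of Alas1, Alad and Ppox depends on scaling, while the other 6 genes were below 0 under every scaling run. When libraries were scaled to the added control RNAs instead of TMM, the median of all genes tested shifted to -0.28, and all 9 members were lower in replicate 1, as were 60.7% of genes beyond counting error. Alas1, Alad and Ppox, at 0.04, 0.02 and 0.02 with TMM, were then at -0.23, -0.25 and -0.25, still above that median. Alas2 was then at -0.60 (interval -0.72 to -0.48).

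**Figure D3:**
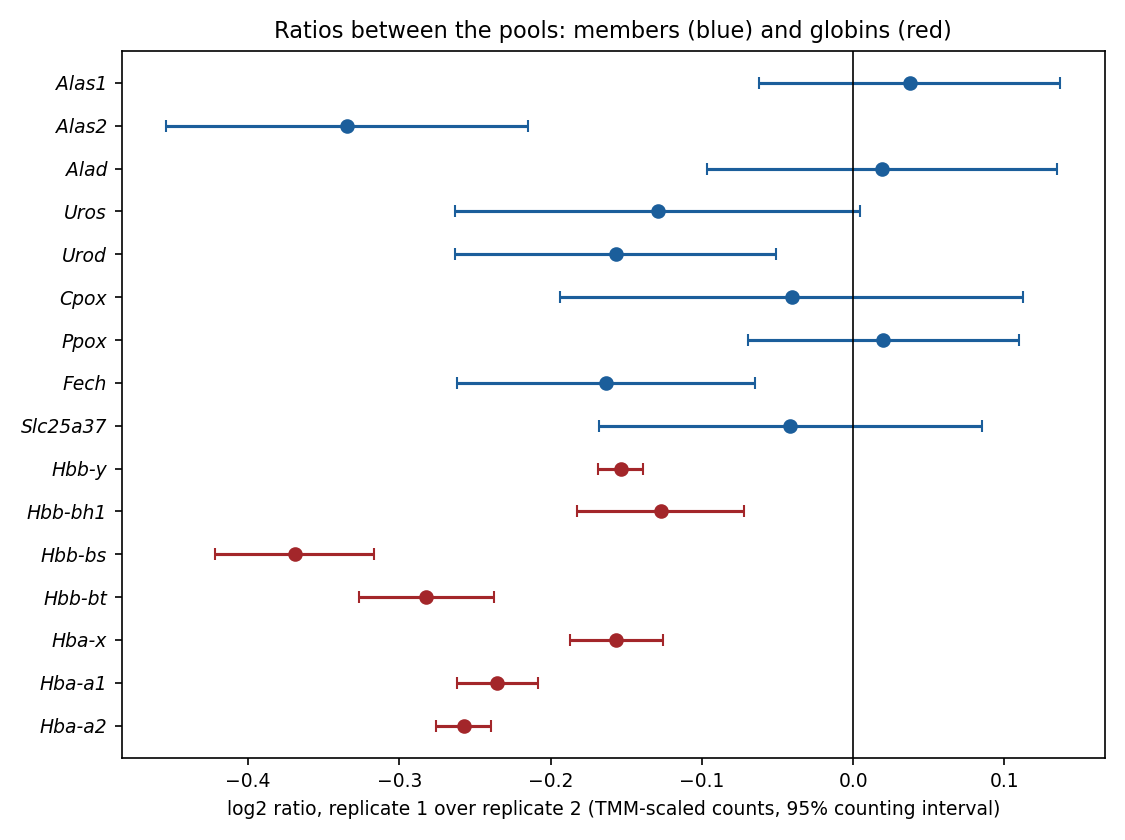
Log2 ratio of replicate 1 over replicate 2 (horizontal axis) for the 9 heme genes (blue) and 7 globins (red). Points are TMM-scaled count ratios and bars 95% counting intervals; Alas2 at -0.33 is the lowest of the heme genes, and all 7 globins are below 0.

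Some erythroid genes were lower in replicate 1 as Alas2 was, and so were markers of some other cell types. The 7 globins, the protein chains of hemoglobin, summed to 15964 TPM in replicate 1 and 18806 TPM in replicate 2. All 7 were lower in replicate 1 beyond counting error, against 16.7% of all genes tested, and 0 were higher, against 15.5%. Their counts ran from 4567 to 90477 in a library, so their intervals are narrower than that of Alas2 and smaller ratios pass. The log2 ratios of the globins ran from -0.37 to -0.13, with a median of -0.24. Alas2 at -0.33 lay inside that range, with 1 globin below it. The 16 other erythroid genes, which include receptors, membrane proteins and factors of red cells, had a median log2 ratio of -0.06, with 3 lower and 2 higher in replicate 1.

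Of 23 erythroid genes found by symbol, 21 were detected. They summed to 16033 TPM in replicate 1 and 18882 TPM in replicate 2, with Hbb-y highest at 6764 ± 598 TPM. Gfi1b, a repressor of the erythroid line, was below the limit at 0.655 ± 0.035 TPM. Gata1, an erythroid factor known to bind GATA letters, was at 1.18 TPM in replicate 1 and 1.21 TPM in replicate 2. All 16 erythroid genes other than globins were below Alas2 in mean level. In bulk tissue, fewer cells of a type and less RNA per cell cannot be told apart. The part of blood cells in the levels or ratios of these genes was not tested. Markers of some other cells were lower in replicate 1 as well, and those of others were not. Beyond counting error, 16.7% of all genes tested were lower and 15.5% higher. All 5 mesenchyme markers were lower, with a median log2 ratio of -0.47. Of the 5 endothelial markers 4 were lower and 1 higher, with a median of -0.22. The 5 summed to 80.5 TPM in replicate 1 and 89.7 TPM in replicate 2. Of the 5 midbrain markers 4 were lower and 1 higher, with a median of -0.50. The 5 summed to 229 TPM in replicate 1 and 271 TPM in replicate 2. Other markers went the other way or stayed level. Of the 5 neuron markers 4 were higher in replicate 1 and 0 lower, with a median of 0.11. Of the 6 neural progenitor markers 4 were higher and 1 lower, with a median of 0.11. The 3 genes of the hepatocyte list that were tested were all higher, while Alb had 0 counts in both libraries. Whether hepatocytes were present was not tested. All 5 microglia markers were within counting error. The part of these cells in the ratio of Alas2 was not tested either.

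The share of a gene's TPM that came from transcripts annotated as protein-coding differed widely among the 9. It was 99.2 ± 0.70% for Alad, 96.9 ± 3.25% for Alas2 and 80.7 ± 0.54% for Uros (SD, n = 2). It was 77.2 ± 0.60% for Cpox, 74.1 ± 2.45% for Slc25a37, 69.4 ± 0.60% for Urod and 52.9 ± 7.40% for Fech. Alas1 at 45.7 ± 0.48% and Ppox at 45.3 ± 3.38% had the lowest shares. For 7 of the 9 the share was below the median of 88.6% over 11838 detected protein-coding genes with several transcripts. Both first enzymes were thus at opposite ends: Alas2 RNA was nearly all assigned to coding transcripts and less than 50% of Alas1 TPM was.

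**Figure D4:**
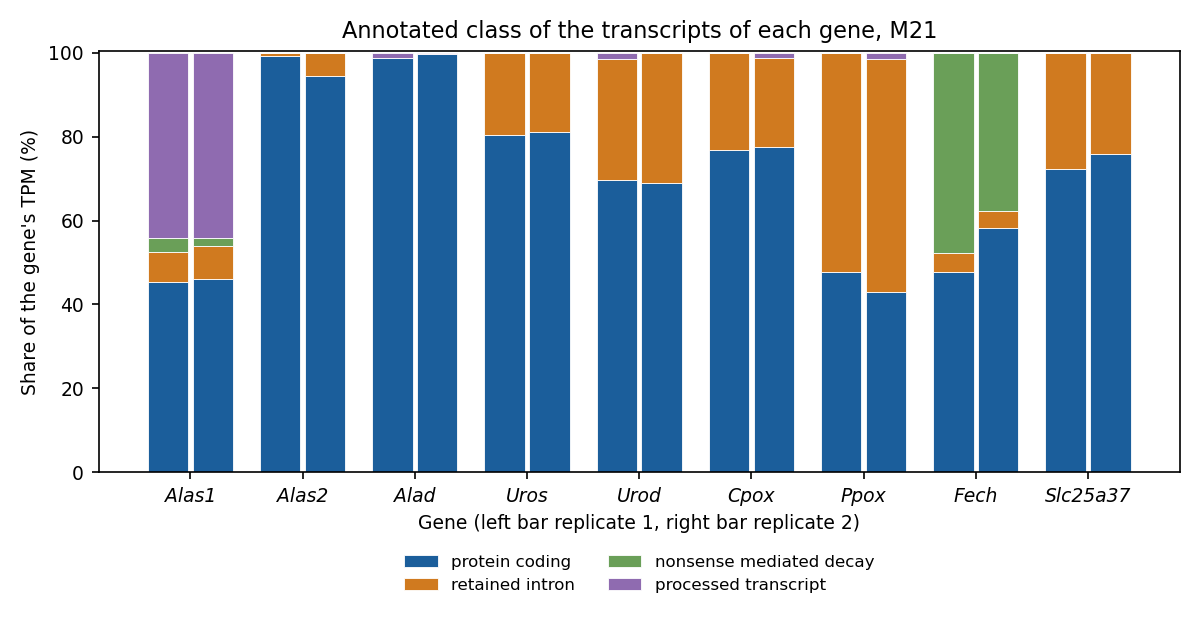
Percent of each gene's TPM (vertical axis) by annotated transcript class, for replicate 1 (left bar) and replicate 2 (right bar). Alad and Alas2 are nearly all protein-coding, Alas1 has a large processed transcript share, Ppox a large retained intron share and Fech a large share annotated for nonsense-mediated decay.

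For Alas1, the processed transcript Alas1-206 took 44.1 ± 0.13% of TPM under M21, but 26.3% in replicate 1 and 30.9% in replicate 2 under M4. It is 1905 bases long, and 1727 of them lie within the coding exons of Alas1-202, so its sequence is largely shared with that coding transcript. The short coding transcript Alas1-211, of 460 bases and not part of M4, took 41.5% of TPM in replicate 1 and 36.7% in replicate 2. In counts the order was wider apart: Alas1-206 had 67.2% of counts in replicate 1 and 62.9% in replicate 2, and Alas1-211 had 12.7% in replicate 1 and 10.4% in replicate 2. The short transcript therefore weighs far more in TPM than in reads. Alas2 was divided between Alas2-201 at 80.3 ± 0.41% and Alas2-202 at 16.6 ± 2.84%, which differ in coding length, 1761 against 1716 bases.

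Among the cytosolic enzymes, Alad-201 took 98.1 ± 0.86% of Alad. Uros was spread over Uros-203 at 29.8 ± 4.22%, Uros-204 at 28.3 ± 4.22%, the retained intron transcript Uros-206 at 19.3 ± 0.53% and Uros-201 at 8.48 ± 2.53%. The 3 coding ones share a coding length of 795 bases. Urod-201 took 65.7 ± 0.88% of Urod, and the retained intron transcript Urod-209, of 598 bases, 7.77% of TPM in replicate 1 and 15.2% in replicate 2. In counts Urod-209 had 3.55% in replicate 1 and 6.81% in replicate 2. Urod thus had a single main coding form, while Uros had several that differ outside the coding part.

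For Cpox, Cpox-201 took 77.2 ± 0.60%, and the retained intron transcript Cpox-204, of 470 bases, 12.7 ± 1.53% of TPM but 1.66% of counts in replicate 1 and 2.00% in replicate 2. Ppox was divided between the coding Ppox-201 at 45.3 ± 3.38%, the retained intron transcript Ppox-207 at 22.0 ± 1.62% and the retained intron transcript Ppox-202 at 15.4 ± 1.94% of TPM. Ppox-202, of 650 bases, had 4.46% of counts in replicate 1 and 3.81% in replicate 2. In counts, Ppox-207, which is 4411 bases long, exceeded Ppox-201 in both libraries, with 48.2% in replicate 1 and 44.5% in replicate 2. Ppox was the member with the most signal in retained intron transcripts, at 54.0 ± 2.42% of TPM over 5 of them. Slc25a37 was divided between Slc25a37-201 at 74.1 ± 2.45% and the retained intron transcript Slc25a37-203 at 25.9 ± 2.45%.

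Fech had the share that varied most. Fech-201 took 30.7% of TPM in replicate 1 and 46.3% in replicate 2. Both Fech-211 and Fech-207, transcripts annotated for nonsense-mediated decay, took 21.7% and 19.4% in replicate 1, and 19.8% and 13.0% in replicate 2. In M4, where Fech-201 is the only transcript of the gene, its share is 100% by construction, as is that of Cpox-201. The shares are estimates from reads that several transcripts have in common: for Fech-201 the model's own SD was 58.2 of 444 counts in replicate 1 and 72.9 of 920 counts in replicate 2.

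Gene totals were less ambiguous than transcript shares. For 5 members, Alad, Uros, Urod, Cpox and Fech, the model's SD of the gene count was 0 in both libraries, and for the others it was at most 0.648% of the count, in Ppox. Overlap with genes on the opposite strand is a separate limit, since the strand setting used in counting is not given in the sources used here. Alas2 shares 311 exonic bases, 12.9% of its own, with Apex2, a DNA repair gene at 16.8 TPM in replicate 1 and 19.0 TPM in replicate 2. Ppox shares 791 exonic bases, 17.5% of its own, with B4galt3, a galactosyltransferase gene at 55.1 TPM in replicate 1 and 63.2 TPM in replicate 2. The levels of Alas2 and Ppox, and the shares of their transcripts, are uncertain to that extent. Whether reads of B4galt3 enter the retained intron share of Ppox was not tested. The genes that overlap exons of Alas1, Cpox and Slc25a37 were below 0.5 TPM in both libraries.

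The genes that serve heme synthesis were present throughout. These 21 genes include the glycine carrier Slc25a38, iron-sulfur cluster builders and the proteases that act on the first enzyme, and 21 of 21 passed 1 TPM in both libraries. Of 22028 protein-coding genes 59.4% did, which also stands beside the lists below. Their median level was 33.8 TPM. Pgrmc1, a heme-binding protein that interacts with ferrochelatase, was highest at 361 ± 15.9 TPM. The median log2 ratio of the 21 genes between the pools was -0.02, with 7 genes lower and 3 higher in replicate 1 beyond counting error. Over all genes tested, 16.7% were lower and 15.5% higher.

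Of 16 iron-handling genes found by symbol, 15 passed that limit, and the median level was 48.3 TPM. Ftl1, the ferritin light chain that also carries the hairpin described above, was highest at 4565 ± 282 TPM. The mitochondrial ferritin Ftmt had 0 counts in both libraries, which allows up to 0.132 TPM in replicate 1 and 0.103 TPM in replicate 2 at 3 counts each. The median log2 ratio was -0.03, with 4 lower and 3 higher in replicate 1, beside 16.7% and 15.5% of all genes tested.

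Of 18 genes that use, move or break down heme, 17 passed it, and the median level was 18.6 TPM. Cyc1, a heme protein of the respiratory chain, was highest at 272 ± 13.5 TPM, and neuroglobin, Ngb, was below the limit at 0.53 TPM in replicate 1 and 0.52 TPM in replicate 2. The median log2 ratio was -0.01, with 5 lower and 1 higher in replicate 1, beside 16.7% and 15.5% of all genes tested.

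Of 8 known or proposed regulators of aminolevulinate synthase genes, 6 passed it, and the median level was 8.96 TPM. Hif1a, the hypoxia factor, was highest at 102 ± 0.18 TPM. Ppargc1b, a coactivator, was lowest at 0.57 TPM in replicate 1 and 1.03 TPM in replicate 2, and Nr1d1, a clock repressor, was at 0.92 TPM in replicate 1 and 1.2 TPM in replicate 2. Both fell short of the limit in replicate 1 alone. The median log2 ratio was -0.07, with 3 lower and 0 higher in replicate 1, beside 16.7% and 15.5% of all genes tested. No gene of the 5 lists, erythroid genes included, differed 2-fold between the pools, against 4.23% of 19885 genes tested. Among the 4248 genes in the count range of the 9 heme genes the share was 0.0942%.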

How the data were processed

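Per the labels' protocols, RNA was extracted with mirVana, and libraries were made from 10 ng of RNA primed with oligo-dT, fragmented by Nextera tagmentation and spiked with ERCC control RNAs. The labels call the 2 pools biological replicates. The authors deposited 4 tables per library, for genes and transcripts under M4 and M21 (mm10). Per the file headers these hold expected counts (estimated reads, not scaled), TPM (the same total over all rows, spike-ins included), the percent of a gene's TPM per transcript, and the model's SD of each count. The column names match RSEM output, but the aligner, the quantifier and the strand setting are not given in the sources used here.

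M21 was the main annotation, and its GENCODE release gave names, coordinates, transcript classes and coding lengths for all 55536 genes. Rows that name no gene held 4.02% of counts in replicate 1 and 3.38% in replicate 2, and were kept out of ratios. Levels are deposited TPM, and a gene was called detected at 1 TPM or more in each library. Log2 ratios of TPM used a pseudocount of 0.1, which understates differences of low genes. Ratios between pools used expected counts rounded to whole numbers, at least 10 in a library, with TMM scaling (edgeR 4.0.16, R 4.3.3) and exact conditional binomial (Clopper-Pearson) 95% intervals (SciPy 1.17.1), fitted over 19885 genes. A gene was called different when the interval excluded equality, and 2-fold different when the ratio was also at least 2-fold. No p-values were computed. Reads carry no molecular identifiers, so intervals and floors cover counting error only, while the common biological coefficient of variation over 21266 genes was 0.0943. Alternatives were DESeq2 1.42.0 size factors, library totals, spike-in totals, other count and TPM limits, M4, and each library alone. Tested on simulated data for this comparison (55536 genes), intervals covered 95.6% of unchanged genes. The 2-fold call found 54% of genes changed 2-fold and 100% of those changed 4-fold. A gene changed exactly 2-fold falls on the limit of the call, so the 54% does not measure sensitivity. The changed genes were also drawn only from genes above a count limit. The simulated counts held Poisson error alone, with no variation between pools, so coverage near 95% was fixed by construction. It does not show how the intervals behave on these pools.

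The 9 genes and all lists were chosen with earlier results of these data known. All 9 are named, with the highest, the lowest and the undetected genes of each list and transcripts of at least 10% of a gene in either library. Slc25a28, Gata1, Fth1, Slc40a1, the overlapping genes and Pax6 were named outside that rule after values were seen. Tf and Ahsp were not matched by symbol and were not analysed here, and some genes that this rule would name are not reported here.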

Additional observations from a re-analysis of the deposited data

How the results depend on the processing

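With 1 library per pool, counting intervals are the only error given on a ratio, and a difference below them was not detectable at this depth. They leave out variation between pools, such as the common biological coefficient of variation of 0.0943. A ratio beyond counting error can therefore lie within that variation. Of 89 recomputed summary values, 75 were called unchanged and 14 moved. Levels, ratios and shares were judged by a spread, but counts of genes by a limit of 1.5 times. Each library alone lies within the SD around the mean of both. Levels, ratios and shares from a single library were therefore unchanged by construction. The tally of 75 includes them, so it does not measure how stable the results are. The median level of the 9 genes, 41.2 TPM, was 33.6 under M4, 45.2 without spike-ins in the scale, 46.1 without spike-ins and globins, and 35.6 per kb of coding length. The log2 ratio of Alas2 over Alas1, -1.09, was -0.41 under M4 and -0.36 by counts per coding base, and -1.35 and -0.83 in the single libraries. The median coding share, 74.1%, was 80.6% under M4. The median of M21 over M4, -0.07, was -0.042 in CPM.

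Spike-in scaling moved the median ratio of the 9 genes to -0.31, and 9 of them, against 3 with TMM, were lower in replicate 1 beyond counting error. It reversed Alas1 to -0.23, Alad to -0.25 and Ppox to -0.25. It moved the list medians to -0.29 for genes that serve heme synthesis, -0.30 for iron handling, -0.28 for heme use and -0.34 for regulators. The cause was not tested. With DESeq2 size factors, library totals, M4 or other count limits, the count of 3 stayed within 1.5 times, and 0 genes passed 2-fold. At a 1.5-fold limit, run with TMM alone, 0 genes passed. Alas2, at -0.33 with TMM, was at -0.60 with spike-in totals. All 9 genes stayed above 5 TPM. No paired analysis was possible because there is only 1 group.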
